A study of Mus musculus with 4 samples.

Results

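The genes described are 9 subunits of Polycomb repressive complex 1 (PRC1), taken as a fixed list of symbols. They are the chromodomain proteins Cbx2, Cbx6, Cbx7 and Cbx8, the RING ubiquitin ligases Ring1 and Rnf2, the Pcgf proteins Bmi1 and Pcgf2, and the Polyhomeotic protein Phc1. All 9 were found by symbol among the 22524 genes counted, and all 9 passed the filter on low counts, which left 14265 genes. RNA was sequenced from 4 mouse skin libraries, 2 in each of 2 groups. Paired values are given in the order replicate 1, replicate 2. All mice carried the transgene Tyr::NrasQ61K, which places oncogenic NrasQ61K under the tyrosinase (Tyr) promoter, with Tyr::CreERT2 and the reporter R26R-LSL-tdTomato. The group named Ezh2Y646N also carried ColA1-LSL-Ezh2Y646N, a conditional allele of a mutant Ezh2 in the ColA1 locus, and the group named NrasQ61K did not. Age is not given in the labels used here. Tamoxifen switched the red reporter on in melanocytic cells of pre-tumorigenic dermal hyperplasia, and cells positive for tdTomato were sorted by flow cytometry (FACS). Recombination depended on Tyr::CreERT2, so the mutant Ezh2 could be switched on only in cells that had used the Tyr promoter. The labels number the libraries 1 and 2 within a group and do not say that these came from separate animals, so p-values measure only the spread between these libraries, which may be technical.

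PRC1 places monoubiquitin on histone H2A through Ring1 or Rnf2, which pair with a Pcgf protein. In canonical PRC1 the Pcgf partner is Bmi1 or Pcgf2, a Cbx protein binds the H3K27 methyl mark that PRC2 and its catalytic subunit Ezh2 lay down, and a Phc protein links complexes to each other through its SAM domain. Variant PRC1 holds Rybp or Yaf2 in place of a Cbx protein, and the Pcgf partner sets which variant forms. Because several paralogues compete for the same place in the complex, their relative amounts decide which forms of canonical PRC1 can assemble. The Cbx proteins differ in function, and Cbx7 and Bmi1 are known for silencing the Ink4 and Arf loci in cultured cells. The libraries address whether RNA for these subunits, and paralogue balance, differed between material sorted from mice with and without the mutant Ezh2 allele.

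Promoter windows from RefSeq on GRCm38.p6 were matched for 8 of the 9 members, each of 300 bases from 250 before to 50 after the annotated start. The windows of Cbx7 and Phc1 are shown because these genes had the highest and the lowest fold change among the members. Capitals mark each CG dinucleotide, and the strand is given in brackets after the position. Cbx2 was not matched. The GENCODE gene models of Cbx6, Cbx7, Cbx8, Pcgf2 and Phc1 reach further upstream than these RefSeq starts. Those of Cbx7 and Phc1 reach to positions 79971119 and 122340561, so both windows printed here lie inside the gene models.
Cbx7, chr15:79932597-79932896 (minus strand): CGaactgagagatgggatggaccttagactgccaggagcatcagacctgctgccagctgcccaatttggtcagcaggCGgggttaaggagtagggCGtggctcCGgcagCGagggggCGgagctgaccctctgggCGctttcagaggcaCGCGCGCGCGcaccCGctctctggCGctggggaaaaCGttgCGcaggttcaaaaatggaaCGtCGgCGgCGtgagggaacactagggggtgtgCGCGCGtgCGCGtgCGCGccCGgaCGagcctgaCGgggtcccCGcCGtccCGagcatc
Phc1, chr6:122340178-122340477 (minus strand): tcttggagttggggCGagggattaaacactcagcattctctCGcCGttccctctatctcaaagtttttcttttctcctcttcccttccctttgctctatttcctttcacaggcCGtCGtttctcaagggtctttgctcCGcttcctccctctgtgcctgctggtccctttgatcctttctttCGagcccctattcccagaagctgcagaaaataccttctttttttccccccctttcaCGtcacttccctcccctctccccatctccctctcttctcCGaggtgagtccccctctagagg
The Cbx7 window held 33 CG dinucleotides, a number reached by 8.56% of 32851 promoters of this length, and the Phc1 window held 9, a number reached by 45.8%. Over the 8 windows the count ran from 9 to 37 with a median of 27, against a median of 7 over all promoters.

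Both strands of the windows were also searched for CACGTG, the E-box bound by Mitf, Myc and related factors, and for CATGTG, a variant that Mitf also binds. The promoters of Bmi1, Cbx6, Cbx8 and Pcgf2 held CACGTG, and 30 bases around it are given for each, with the motif in capitals.
Bmi1, chr2:18676791-18676820 (plus strand): gaatgaggggagCACGTGacccggcggggg
Cbx6, chr15:79834342-79834371 (minus strand): ggcccggagcatCACGTGacggcccgcagc
Cbx8, chr11:119040994-119041023 (minus strand): cgtcgttagcaaCACGTGgggcgggaggaa
Pcgf2, chr11:97699768-97699797 (minus strand): aaggaatgaggtCACGTGggtgagtagtgg
The motif began 215 bases before the RefSeq start in Bmi1, 137 in Pcgf2, 98 in Cbx8 and 26 in Cbx6. In Pcgf2 and Cbx6 it lay inside the GENCODE gene model, which reaches to positions 97700497 and 79834688. It stood in 4 of 8 member windows, in 7.15% of all promoters, and in 10.8% of the 15040 promoters with at least 9 CG dinucleotides. That cut is the lowest count among the member windows, whose median was 27, so it does not match their CG content. CATGTG was found in the window of Ring1 and in 14.2% of all promoters. Of 3 motifs linked to the cell cycle, TTTGAA stood in the Cbx7 window and in 17.9% of all promoters, while TTTCGCGC and TTTGGCGC stood in none of the 8 windows and in 0.323% and 0.514% of all promoters. CACGTG itself contains a CG. These letters are a description of the windows, and binding was not measured.

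Total counts ran from 14808801 to 20600297 per library. Ezh2 RNA was at 135 and 91.6 CPM in the Ezh2Y646N libraries, and at 171 and 75.1 CPM in the NrasQ61K libraries (log2 fold change -0.11, edgeR's adjusted p = 0.944). Nras and Tyr had log2 fold changes of -0.07 and 0.44 with adjusted p of 0.944 and 0.435. Counts per gene do not tell a mutant transcript from the endogenous one. Total Ezh2 RNA, to which the added allele could contribute, overlapped between the groups, and its mean was not higher in Ezh2Y646N. These genes therefore do not check the labels. The 8 melanocyte markers, led by Dct, summed to 3806 and 3922 CPM in Ezh2Y646N and to 2605 and 3406 in NrasQ61K, and none was at 0, but keratinocyte markers were more abundant. Basal keratinocyte markers, led by Krt5, summed to 13061 and 20178 CPM against 9871 and 23560, and suprabasal ones, led by Dsp, to 51785 and 41394 against 9249 and 19104. Dsp alone had means of 15798 CPM in Ezh2Y646N and 9093 in NrasQ61K, so the NrasQ61K sum rests largely on this gene. Hair shaft and root sheath markers, led by Tchh, summed to 445 and 188 CPM against 2328 and 1352. Fibroblast markers, led by Col1a1, summed to 805 and 2021 CPM against 4018 and 2345. The sums for endothelium (led by Plvap) were 127 and 75.1 CPM against 208 and 174, for macrophages and dendritic cells (Cd74) 64.5 and 137 against 148 and 382, and for Schwann cells and glia (Egr2) 852 and 374 against 224 and 371. Those for pericytes and smooth muscle (Myh11) were 70.9 and 57.8 CPM against 91.3 and 96.7, for lymphocytes and mast cells (Cd3g) 1.84 and 7.60 against 2.28 and 19.0, and for erythroid cells (Hbb-bs) 8.16 and 5.53 against 2.09 and 4.32. Egr2 itself went the other way from the sum of its list, with means of 98.6 CPM in Ezh2Y646N and 171 in NrasQ61K. Myh11 also did so, with 29.1 against 27.3 CPM. Proliferation genes, led by Mki67, summed to 1658 and 1081 CPM against 2403 and 1019. No listed marker with a row was at 0 in all 4 libraries. At an adjusted p under 0.05 in edgeR, 2 suprabasal markers and 1 Schwann cell marker were higher in the Ezh2Y646N libraries, and 4 hair markers, 1 fibroblast marker and 1 pericyte marker were lower. Because keratinocyte markers were more abundant than melanocyte ones, the PRC1 values below describe the sorted material and cannot be read as levels in melanocytic cells.

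None of the 9 PRC1 subunits passed the threshold between the groups. In edgeR's quasi-likelihood test 0 of 9 had an adjusted p under 0.05, beside 1.77% of all genes tested, and DESeq2 and limma voom also called 0. Phc1 alone had an unadjusted p under 0.05, which 14.3% of all tested genes had. The CPM values of the groups did not overlap for 3 of the 9, Cbx7, Bmi1 and Phc1, where 44.2% of all tested genes did not overlap. Fold changes of the members ran from -0.90 to 0.68 on the log2 scale, with 4 above 0 and 5 below. Their median was -0.05, beside -0.04 over all tested genes, and the median size without sign was 0.13, beside 0.30. The median standard error (SE) was 0.28. When counts of this design were simulated, 11.9% of 67 genes changed by 2-fold and 92.5% of 67 changed by 4-fold were recovered, so a 2-fold change in a single subunit could be missed. The changed genes were drawn at random above a set CPM and were few beside those tested. The share recovered could therefore differ for PRC1 subunits in these data.

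**Figure D1:**
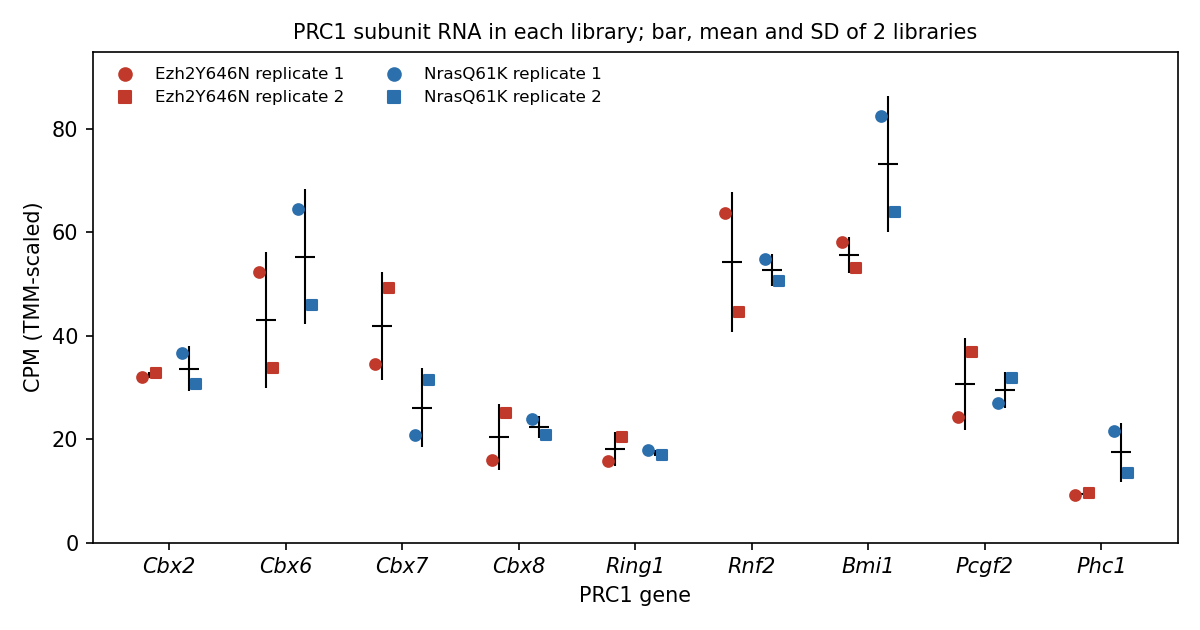
CPM of the 9 PRC1 subunits in each library, with circles and squares for replicates 1 and 2 and bars for the mean and SD of the 2 libraries in a group. The groups separate for Cbx7, Bmi1 and Phc1, and in each of these NrasQ61K replicate 1 lies farthest from the Ezh2Y646N libraries.

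Of the 4 chromodomain subunits, Cbx7 was the one whose groups did not overlap, with both Ezh2Y646N values above the others, but it did not pass the test. Cbx7 (ENSMUSG00000053411, chromosome 15, 79915807 to 79971119 on GRCm38) is a short Cbx protein that also binds RNA and represses the Ink4 and Arf loci. Its level was 34.5 and 49.2 CPM in the Ezh2Y646N libraries, and 20.7 and 31.5 CPM in the NrasQ61K libraries. The lowest value was in NrasQ61K replicate 1, and the closest values of the groups were 34.5 and 31.5 CPM. Group means were 41.9 ± 10.4 and 26.1 ± 7.59 CPM (SD, n = 2 each), which gave a log2 fold change of 0.68 (SE 0.30, 95% interval -0.03 to 1.39), and edgeR's adjusted p was 0.372. The fold change was 0.41 without NrasQ61K replicate 1; without Ezh2Y646N replicate 2 it was 0.40, and without NrasQ61K replicate 2 it was 1.06. The sum of suprabasal keratinocyte markers given above was also higher in both libraries labelled Ezh2Y646N, as were the melanocyte, Schwann cell and erythroid sums. Within Ezh2Y646N, the suprabasal sum was higher in replicate 1 (51785 against 41394 CPM), whereas Cbx7 was higher in replicate 2. The part of any of these cells in the Cbx7 values was not tested. In bulk RNA, fewer cells of a type and less RNA per cell cannot be told apart.

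Cbx2, Cbx6 and Cbx8 overlapped between the groups. Cbx2 (ENSMUSG00000025577, chromosome 11, 119022962 to 119031270) compacts chromatin and is needed for male sex determination in mice. It was at 32.0 and 32.9 CPM in the Ezh2Y646N libraries, and at 36.7 and 30.6 CPM in the NrasQ61K libraries. All 4 libraries were close together, with a log2 fold change of -0.05 (SE 0.24, 95% interval -0.61 to 0.50, edgeR's adjusted p = 0.957). Cbx8 (ENSMUSG00000025578, chromosome 11, 119036305 to 119040969) is its neighbour in the genome, on the other strand, and was at 15.9 and 25.0 CPM against 23.8 and 20.9. Here the lowest and the highest of the 4 values were both in the Ezh2Y646N group, and the log2 fold change was -0.13 (SE 0.30, 95% interval -0.84 to 0.58, edgeR's adjusted p = 0.916). Cbx6 (ENSMUSG00000089715, chromosome 15, 79823896 to 79834688), a Cbx protein less often found in canonical PRC1, was at 52.4 and 33.7 CPM against 64.6 and 46.0. Its log2 fold change was -0.36 (SE 0.30, 95% interval -1.05 to 0.33, edgeR's adjusted p = 0.691), and it was -0.08 without Ezh2Y646N replicate 2, -0.10 without NrasQ61K replicate 1 and -0.71 without Ezh2Y646N replicate 1.

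Exons of 3 members overlap other genes, so their counts carry some uncertainty. Cbx6 shares 563 bases, 5.31% of its merged exons, with Npcd on the same strand, which no strand setting would separate. Cbx7 shares 100 bases (1.54%) with Apobec3 and Rnf2 158 bases (3.83%) with Trmt1l, both on the opposite strand. For Cbx7 and Rnf2 the effect depends on the strand setting of the counting, which is not given in the sources used here.

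The RING ligases showed no difference larger than the spread between libraries. Rnf2, also called Ring1B and the main H2A ligase of PRC1 (ENSMUSG00000026484, chromosome 1, 151458004 to 151500955), was at 63.8 and 44.6 CPM in the Ezh2Y646N libraries, and at 54.9 and 50.5 CPM in the NrasQ61K libraries. The NrasQ61K values lay between the other values, and the log2 fold change was 0.04 (SE 0.25, 95% interval -0.55 to 0.63, edgeR's adjusted p = 0.965). Ring1, its paralogue (ENSMUSG00000024325, chromosome 17, 34020792 to 34024680), was at 15.7 and 20.4 CPM against 17.8 and 16.98. In the same way its NrasQ61K values fell between those of the Ezh2Y646N group, with a log2 fold change of 0.06 (SE 0.28, 95% interval -0.59 to 0.71, adjusted p = 0.959). In the Ezh2Y646N group Rnf2 was higher in replicate 1 and Ring1 in replicate 2.

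Bmi1 was lower in both libraries labelled Ezh2Y646N without passing the test, and Pcgf2 was not separated. Bmi1, also called Pcgf4 and known for stem cell self-renewal (ENSMUSG00000026739, chromosome 2, 18677018 to 18686629), was at 58.2 and 53.2 CPM in the Ezh2Y646N libraries, and at 82.5 and 64.0 CPM in the NrasQ61K libraries. The closest values of the groups were 58.2 and 64.0 CPM, and NrasQ61K replicate 1 was the highest library. Group means were 55.7 ± 3.53 and 73.2 ± 13.1 CPM (SD, n = 2 each), which gave a log2 fold change of -0.39 (SE 0.23, 95% interval -0.94 to 0.15, edgeR's adjusted p = 0.538). It was -0.20 without NrasQ61K replicate 1. Pcgf2, also called Mel18 (ENSMUSG00000018537, chromosome 11, 97688823 to 97700497), was at 24.3 and 36.9 CPM against 27.0 and 31.9. Its values overlapped, with a log2 fold change of 0.05 (SE 0.28, 95% interval -0.61 to 0.71, adjusted p = 0.960).

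Phc1 had the lowest p among the members and the lowest RNA level. Phc1, the mouse Polyhomeotic homologue also called Rae28 (ENSMUSG00000040669, chromosome 6, 122317731 to 122340561), was at 9.25 and 9.53 CPM in the Ezh2Y646N libraries, from 161 and 138 reads. It was at 21.5 and 13.5 CPM in the NrasQ61K libraries, from 341 and 281 reads. The Ezh2Y646N libraries were close to each other, and the NrasQ61K libraries differed from each other by more than the lower of them differed from the Ezh2Y646N group. Group means were 9.39 ± 0.196 and 17.5 ± 5.71 CPM (SD, n = 2 each), 1.86-fold lower in Ezh2Y646N, or a log2 fold change of -0.90 (SE 0.33, 95% interval -1.67 to -0.12). The unadjusted p was 0.0289 and edgeR's adjusted p was 0.267, and it ranked 1544 of 14265 genes by p. The log2 fold change became -0.52 without NrasQ61K replicate 1 (edgeR's adjusted p = 0.741) and -1.16 without NrasQ61K replicate 2 (adjusted p = 0.0790). Without Ezh2Y646N replicates 1 and 2 it was -0.88 and -0.92 (adjusted p = 0.631 and 0.598). NrasQ61K replicate 1 also had the highest sum of proliferation genes, at 2403 CPM against 1019 to 1658 in the others. That library had the highest values of Cbx2, Cbx6, Bmi1 and Phc1 and the lowest of Cbx7. Of the other members, Rnf2 was highest in Ezh2Y646N replicate 1, and Cbx8, Ring1 and Pcgf2 in Ezh2Y646N replicate 2. Ezh2Y646N replicate 1 had the next highest proliferation sum, 1658 CPM, but the lowest Phc1, 9.25 CPM. The part of proliferation in these values was not tested.

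**Figure D2:**
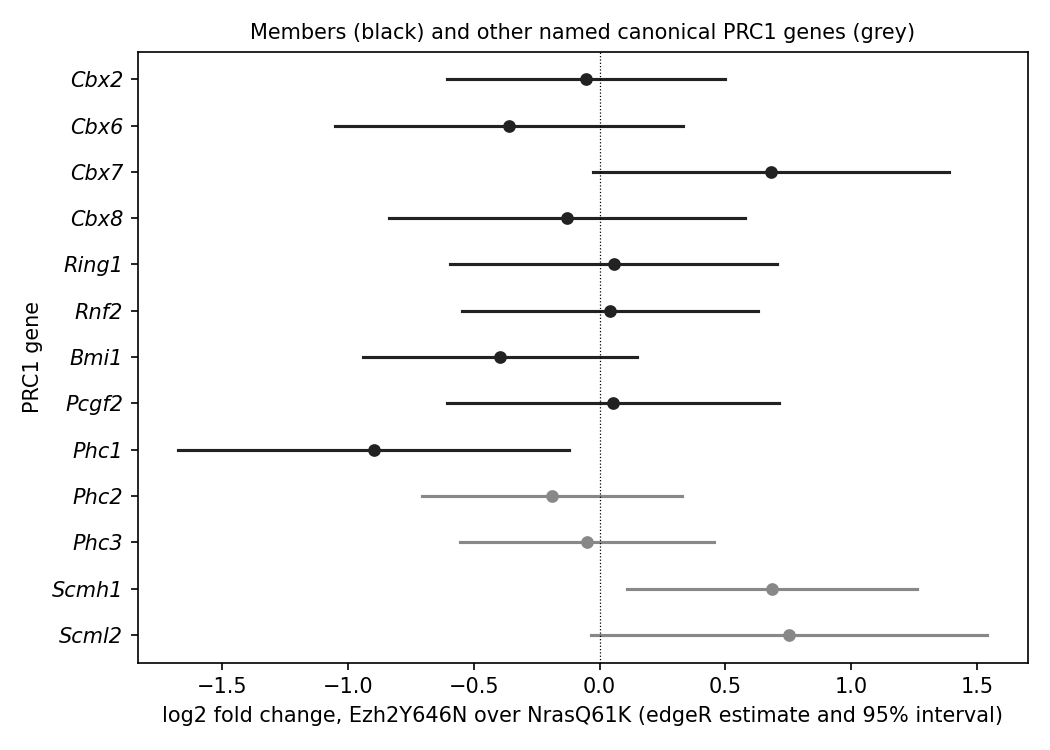
Log2 fold change of Ezh2Y646N over NrasQ61K from edgeR with its 95% interval, for the 9 members in black and 4 other canonical PRC1 genes in grey. The unadjusted interval leaves out 0 for Phc1 (-1.67 to -0.12) and Scmh1 (0.11 to 1.26) and spans 0 for the other genes shown, Cbx7 (-0.03 to 1.39) included.

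Levels were compared between members per kilobase of merged exons, as CPM per kilobase averaged over the 4 libraries. Bmi1 was highest at 16.2 ± 3.22 (SD over 4 libraries), followed by Rnf2 at 13.0 ± 1.96, Pcgf2 at 8.51 ± 1.57 and Cbx2 at 7.76 ± 0.617. Then came Cbx8 at 5.82 ± 1.10, Ring1 at 5.47 ± 0.613, Cbx7 at 5.24 ± 1.81, Cbx6 at 4.64 ± 1.21 and Phc1 at 2.54 ± 1.08. Neighbours in this order overlapped in their range over libraries, except that the range of Rnf2 lay above that of Pcgf2 and the range of Cbx2 above that of Cbx8. Bmi1 and Rnf2 held the highest places in all 4 libraries, and Phc1 the last place in all but NrasQ61K replicate 1, where Cbx7 was last. Among all tested genes, mean CPM placed the members between the 35.3 percentile (Phc1) and the 73.6 percentile (Bmi1). Merged exons count all annotated isoforms, which makes the 10.609 kilobases of Cbx6 long and its level per kilobase low if a shorter isoform is in use.

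The balance between paralogues was compared as the log2 ratio of their CPM, with 0.5 CPM added to each, in each library. For 10 pairs, the exact permutation test over 2 against 2 libraries cannot give a p under 0.333, so no pair could pass, and the adjusted p over the 10 pairs was 0.833 or more. The groups did not overlap for 4 of the 10 pairs. In CPM of single genes, 44.2% of all tested genes did not overlap, and no such share was computed for ratios. Each of these 4 pairs holds Cbx7 or Phc1, whose own CPM did not overlap, so they are not separate results. Cbx7 was higher relative to Cbx8 in both Ezh2Y646N libraries. Its log2 ratio to Cbx8 was 1.09 and 0.96 in the Ezh2Y646N libraries, and -0.20 and 0.58 in the NrasQ61K libraries. The groups did not overlap, and the difference of means was 0.84, with an exact two-sided permutation p of 0.333 and a pooled SD of 0.39. Cbx7 relative to Cbx2 also did not overlap, at 0.11 and 0.58 against -0.81 and 0.04, a difference of 0.73 with a pooled SD of 0.48 (exact permutation p = 0.333). Cbx7 relative to Cbx6 had the largest difference, 1.05, but the values overlapped, at -0.59 and 0.54 against -1.62 and -0.54 (pooled SD 0.78, exact permutation p = 0.667). Leaving out each library in turn moved these differences between 0.45 and 1.23 for Cbx8, 0.30 and 1.15 for Cbx2, and 0.48 and 1.62 for Cbx6.

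Phc1 was lower relative to both of its paralogues in both Ezh2Y646N libraries. Relative to Phc3, its log2 ratio was -3.50 and -3.46 in the Ezh2Y646N libraries, and -2.50 and -2.89 in the NrasQ61K libraries. The difference was -0.79 with a pooled SD of 0.19, with an exact permutation p of 0.333, and it ran from -0.98 to -0.59 when each library was left out. Relative to Phc2, the log2 ratio was -2.88 and -3.12 against -1.99 and -2.74, a difference of -0.64 with a pooled SD of 0.40 (exact permutation p = 0.333). Leaving out NrasQ61K replicate 1 brought this difference to -0.26, and leaving out replicate 2 of that group to -1.01. The NrasQ61K libraries again differed from each other, and replicate 1 was farther from the other group.

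The remaining 5 pairs overlapped between the groups. Bmi1 relative to Pcgf2 was at 1.24 and 0.52 in the Ezh2Y646N libraries, and at 1.59 and 0.99 in the NrasQ61K libraries, a difference of -0.41 with a pooled SD of 0.47 (exact permutation p = 0.667). It ran from -0.77 without Ezh2Y646N replicate 1 to -0.05 without Ezh2Y646N replicate 2, and was -0.11 and -0.71 without NrasQ61K replicates 1 and 2. Ring1 relative to Rnf2 was at -1.98 and -1.11 against -1.60 and -1.55, a difference of 0.03 with a pooled SD of 0.44 (exact permutation p = 1). The Ezh2Y646N libraries stood on either side of the NrasQ61K pair, which were close together. The differences were -0.32 for Cbx6 relative to Cbx2, -0.22 for Cbx6 relative to Cbx8 and -0.11 for Cbx8 relative to Cbx2, each smaller than its pooled SD of 0.35, 0.65 and 0.30.

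**Figure D3:**
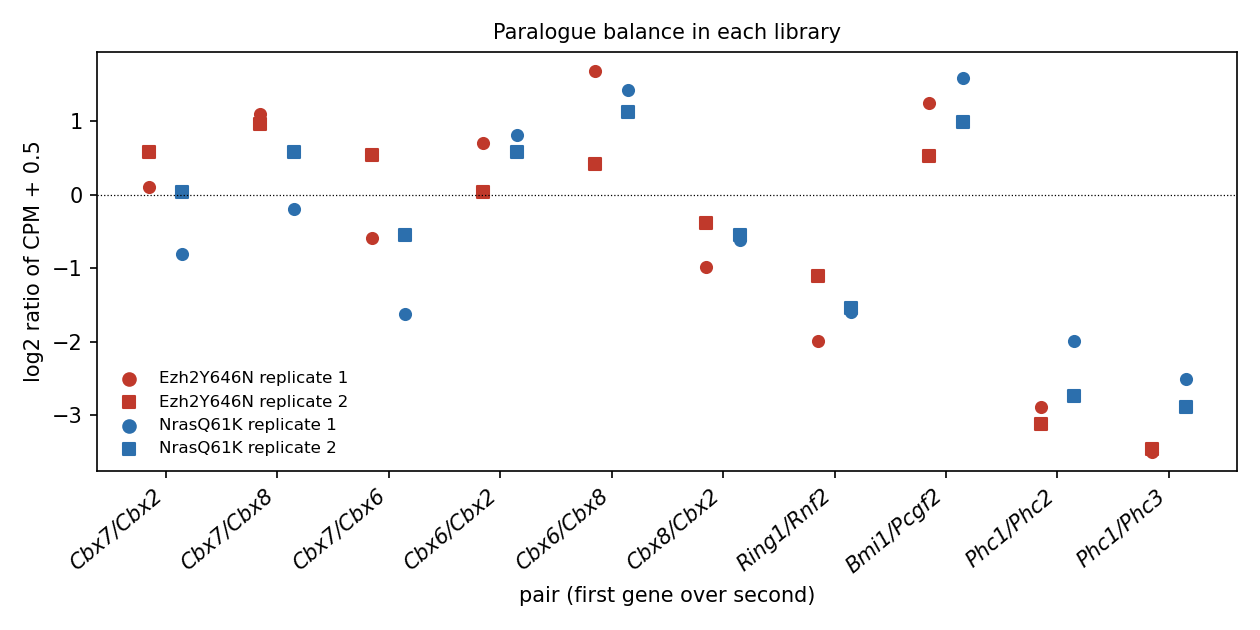
Log2 ratio of CPM with 0.5 added for 10 pairs of PRC1 paralogues in each library, in red for Ezh2Y646N and blue for NrasQ61K. The groups do not overlap for Cbx7/Cbx2, Cbx7/Cbx8, Phc1/Phc2 and Phc1/Phc3, with differences of 0.73, 0.84, -0.64 and -0.79. Over all tested genes, 44.2% do not overlap in CPM of single genes, which is a different measure from a ratio.

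As shares of the summed CPM per kilobase of the 4 Cbx members, Cbx7 made up 24.1% and 30.01% in the Ezh2Y646N libraries, and 13.1% and 22.0% in the NrasQ61K libraries. Cbx2 made up 34.0% and 30.5% against 35.4% and 32.6%, Cbx8 19.6% and 26.9% against 26.6% and 25.7%, and Cbx6 22.4% and 12.6% against 25.0% and 19.7%. Cbx7 was the member whose share did not overlap between the groups, while the sum itself overlapped, at 22.1 and 25.3 CPM per kilobase against 24.4 and 22.1. Phc1 made up 9.63% and 8.83% of the 3 Phc genes against 17.3% and 11.8%. The Phc sum itself did not overlap, at 18.1 and 20.4 CPM per kilobase in the Ezh2Y646N libraries against 23.5 and 21.6 (exact permutation p = 0.333, the smallest possible). Rnf2 made up 63.2% to 76.1% of the Ring1 and Rnf2 sum over the 4 libraries. Bmi1 made up 68.0% and 56.1% of the Bmi1 and Pcgf2 sum against 73.1% and 64.0%, which overlapped, while that sum did not, at 21.5 and 23.8 CPM per kilobase against 28.4 and 25.1 (exact permutation p = 0.333). Of all 6 Pcgf genes Bmi1 made up 33.4% and 28.4% against 39.7% and 35.4%, which did not overlap. Pcgf5, at 3.22% and 3.49% against 1.62% and 2.49%, also did not overlap. The sum of the 6 overlapped, at 43.9 and 47.0 CPM per kilobase against 52.3 and 45.5. Of the Phc genes, Phc3 did not overlap either, at 34.7% and 30.9% against 30.3% and 27.3%. Shares of the other Pcgf genes and of Phc2 overlapped. These separations stand beside the 44.2% of all tested genes whose groups did not overlap in CPM. That figure is for single genes, and none was computed for shares or sums.

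**Figure D4:**
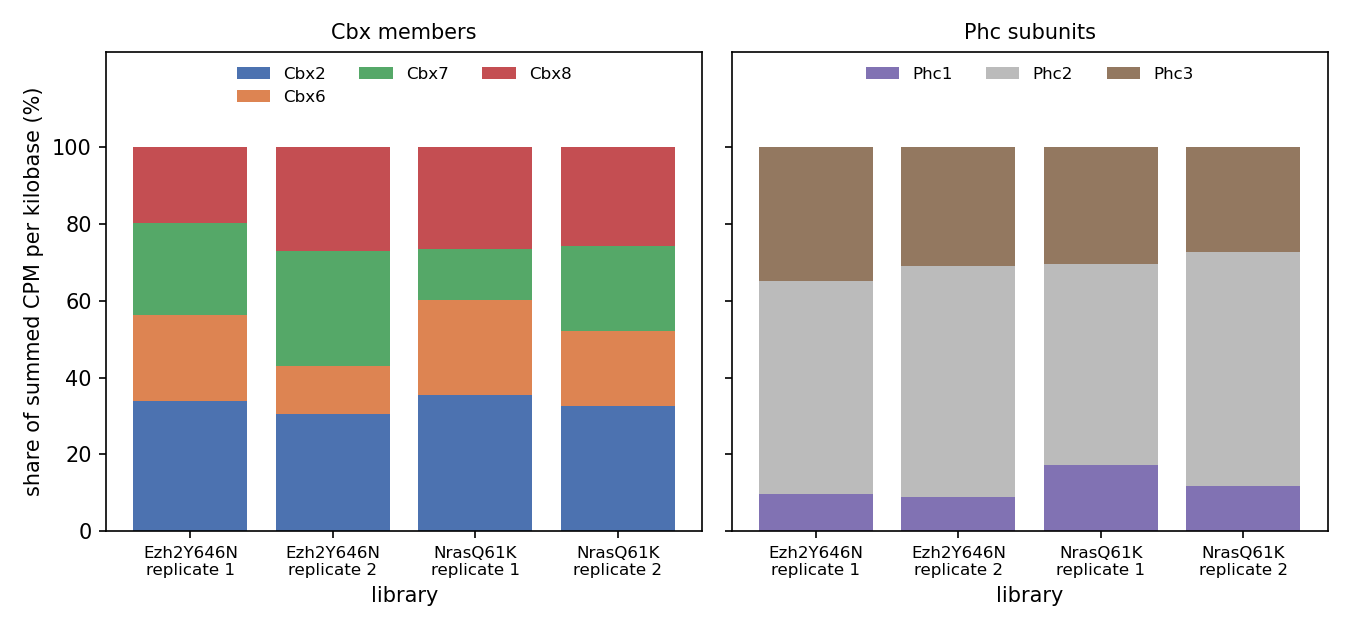
Stacked share, in percent, of each paralogue in the summed CPM per kilobase of the 4 Cbx members (left) and the 3 Phc genes (right), 1 bar per library. Cbx7 takes 24.1% and 30.01% in Ezh2Y646N and 13.1% and 22.0% in NrasQ61K of the Cbx members, and Phc1 9.63% and 8.83% against 17.3% and 11.8% of the Phc genes.

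Other genes of the Polycomb system were read from the same fit, and 0 of 48 passed in edgeR, DESeq2 or limma voom. In edgeR 1.77% of all tested genes passed. Of the 48, 1 gene (2.08%) had an unadjusted p under 0.05, beside 14.3% of all tested genes. The gene was Scmh1, a SAM-domain protein of canonical PRC1, at 45.2 and 46.8 CPM in the Ezh2Y646N libraries, and 24.6 and 32.5 CPM in the NrasQ61K libraries. Its groups did not overlap, as for 16 of the 48 and 44.2% of all tested genes. Its log2 fold change was 0.69 (SE 0.25, unadjusted p = 0.0253, edgeR's adjusted p = 0.250). Among the 6 other canonical PRC1 genes the median log2 fold change was 0.12, with the Scmh1 relative Scml2 at 0.75 (adjusted p = 0.374) and Phc2 at -0.19 (adjusted p = 0.807). The 26 genes of variant PRC1 had a median of 0.03, with 14 above 0 and 12 below. Their smallest p-values belonged to Auts2, a partner of Pcgf3 and Pcgf5 complexes (0.51, adjusted p = 0.374), Pcgf5 itself (0.62, adjusted p = 0.412) and the kinase subunit Csnk2b (0.47, adjusted p = 0.421). In the H2A deubiquitination list of 6 genes, which oppose PRC1 at H2AK119, 5 were below 0 with a median of -0.18, beside 7703 of all 14265 genes below 0, and 0 had an unadjusted p under 0.05. Asxl2, Mysm1 and Usp16 had log2 fold changes of -0.38, -0.26 and -0.19, and without NrasQ61K replicate 1 these were -0.08, 0.04 and 0.11. The 6 PRC2 core genes had a median of -0.13, with Rbbp7 at 0.25, Rbbp4 at -0.27 and Ezh1 at -0.15, none past the threshold. Rbbp4 was at -0.06 without NrasQ61K replicate 1. Of the heterochromatin relatives Cbx1, Cbx3 and Cbx5, which bind H3K9 methylation, the log2 fold changes were 0.004, 0.17 and -0.12.

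The Ink4 and Arf loci, long-studied targets of Bmi1 and Cbx7, showed no difference that passed the test. Cdkn2a, which encodes p16Ink4a and p19Arf from a shared gene, was at 3.97 and 3.45 CPM in the Ezh2Y646N libraries, and at 3.35 and 2.69 CPM in the NrasQ61K libraries. The groups did not overlap, and the log2 fold change of 0.30 had an SE of 0.48 (edgeR's adjusted p = 0.865). Cdkn2b, which encodes p15Ink4b, was at 44.1 and 33.1 CPM against 25.97 and 37.02. Its values overlapped, with a log2 fold change of 0.29 and an SE of 0.28 (edgeR's adjusted p = 0.752). Without NrasQ61K replicate 1 it was 0.06 and without Ezh2Y646N replicate 1 it was 0.07, while without NrasQ61K replicate 2 it was 0.61.

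The genes most like Phc1 and Cbx7 in their pattern over the 4 libraries were found among the other 56 tested genes of the Polycomb lists, by the Euclidean distance of log2 CPM centred on each gene's mean. For Phc1 the nearest were Asxl2 (distance 0.48), L3mbtl2, a subunit of a variant PRC1 (0.49), and Bmi1 (0.51). For Cbx7 they were Pcgf5 (0.25), Auts2 (0.34) and Scmh1 (0.35). All of the first set were highest in NrasQ61K replicate 1, like Phc1, and all of the second set lowest there, like Cbx7. The sets were chosen by closeness over these same libraries, so this is not a separate result. With 4 libraries, these distances are a description.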

How the data were processed

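Counts were deposited as whole-number reads per Ensembl gene, with no normalization, per the file headers and values, in 4 libraries. Of tools, the submitters' processing notes list STAR 2.5.4b and featureCounts beside bcl2fastq 2.19, Trimmomatic and edgeR, with the build GRCm38 and no order of use; which annotation release and strand setting served for counting is not given in the sources used here. Per the labels, libraries came from a stranded low-input total RNA kit with removal of ribosomal RNA. Symbols, positions and merged exon lengths were taken from GENCODE M21 on GRCm38, which held 22291 of 22524 identifiers, and 128 of 130 listed genes had a row. The test was run in edgeR 4.0.16 under R 4.3.3 (filterByExpr with a minimum count of 10 and 15 in total, TMM scaling, robust quasi-likelihood fit on group, Benjamini-Hochberg over 14265 genes, threshold 0.05). Each SE was the size of the fold change over the root of F. CPM are counts scaled by TMM-adjusted library sizes. Libraries held 14808801 to 20600297 counts, with at least 138 reads for each member in each library. The fit was tested on simulated data. DESeq2 1.42.0 and limma 3.58.1 voom were alternatives, with other scaling, filters, a replicate block and each library left out. Members, lists and pairs were chosen with earlier results of these data known. The genes named are the members, up to 3 genes with the smallest p per pathway list, Ezh2, Nras, Tyr, the paralogues in the 10 pairs, the nearest patterns and the most abundant marker per cell type. The counts over lists include 1 gene that is not reported here.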

Additional observations from a re-analysis of the deposited data

How the results depend on the processing

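No PRC1 member and no gene of the other Polycomb lists was called in any of the 12 alternatives, in which the lowest adjusted p of a member was 0.0726 (Cbx7 without NrasQ61K replicate 2). Phc1 stayed below 0, from -1.16 to -0.52, and Cbx7 above 0, from 0.40 to 1.06, on the log2 scale. The count over all genes was less stable: 253 (157 higher, 96 lower) became 1302 (686 and 616) with no filter on low counts and 927 (529 and 398) in DESeq2, and ran from 92 to 1123 (49 to 730 higher, 43 to 393 lower) when each library was left out; the cause was not tested. Where a group was left with 1 library, that library was assumed to vary like the other group. Where replicate numbers entered the model as a block, although no label pairs them, 1337 genes were called (710 higher, 627 lower), 0 members were called, the lowest adjusted p was 0.0860 for Cbx7, and the paralogue differences were the same by construction. Replicate 1 deviated from its group's mean with a correlation of 0.13 between the groups, across genes.

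Small fold changes changed sign when a library was left out. Among the members these were Cbx2 (-0.14 to 0.082), Cbx8 (-0.49 to 0.16), Pcgf2 (-0.28 to 0.33), Ring1 (-0.15 to 0.23) and Rnf2 (-0.24 to 0.27). Among the other named genes they were Cbx1 (-0.20 to 0.29), Cbx3 (-0.023 to 0.44), Cbx5 (-0.57 to 0.41), Ezh1 (-0.28 to 0.034), Ezh2 (-0.55 to 0.59), L3mbtl2 (-0.69 to 0.034), Mysm1 (-0.46 to 0.036), Nras (-0.22 to 0.064), Phc3 (-0.14 to 0.092) and Usp16 (-0.41 to 0.11). The paralogue balances that changed sign in this way were Cbx6 to Cbx2 (-0.66 to 0.011), Cbx6 to Cbx8 (-0.85 to 0.42), Cbx8 to Cbx2 (-0.41 to 0.19) and Ring1 to Rnf2 (-0.41 to 0.46). With no filter on low counts Cbx1 was at -0.0023 in place of 0.0038. Beside Bmi1, Cbx6, Cbx7, Phc1 and the balances of Cbx7, given with their values, these kept their sign when each library was left out but moved by over 1.5 times: Asxl2 (-0.59 to -0.08), Auts2 (0.34 to 0.75), Cdkn2a (0.19 to 0.46), Cdkn2b (0.06 to 0.61), Csnk2b (0.28 to 0.63), Phc2 (-0.34 to -0.05), Rbbp4 (-0.42 to -0.06), and the balances Bmi1 to Pcgf2 (-0.77 to -0.05) and Phc1 to Phc2 (-1.01 to -0.26).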
